A study of Mus musculus with 2 samples.

Results

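Ribosome biogenesis genes encode the machinery that makes ribosomes. They were taken here as every gene of the table whose symbol starts with Nop, Nol, Utp, Rrp or Rrs followed directly by a digit, or with Polr1 followed by a letter or digit. The rule gave 40 of the 13373 genes, and their levels were set beside Myc. The cells came from mouse intestinal organoids (small cultures grown from intestinal tissue) that carry a mutation in Apc, of strain C57Bl and an age of 3 to 4 months per the labels. A library of cells given DBZ, which blocks gamma-secretase and so Notch signalling, stood against a library of cells given the vehicle DMSO. The protocol text shared by both samples lists 10 uM DBZ and 300 nM 4-hydroxytamoxifen, and the titles were followed for which library received DBZ. No source used here gives the allele of Apc, a Cre driver or the number of animals.

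Ribosome assembly starts in the nucleolus, where RNA polymerase I transcribes the ribosomal RNA precursor. Small nucleolar ribonucleoproteins (snoRNPs) then modify this precursor, and assembly factors cut and fold it with ribosomal proteins into the small and large subunits. Myc, the transcription factor downstream of Wnt signalling in intestinal crypts, is known as an activator of many of these genes. Proliferating crypt cells are known for a high demand for ribosomes.

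Single cells were sequenced with unique molecular identifiers (UMIs), which count captured transcripts. There were 1241 DBZ cells with a median of 10901 UMIs and 968 DMSO cells with a median of 11183, and 3 cell barcodes occurred in both libraries. All 8 epithelial markers (Epcam, Cdh1, Krt8, Krt18, Krt19, Vil1, Cdx1 and Cdx2) were detected, summed to 37.0 UMIs per 10000 in DBZ cells and 57.9 in DMSO cells. Of 7 fibroblast markers the table held 1, Vim, which was at 5.73 per 10000 with DBZ and 11.7 with DMSO, and its part in the results was not tested. Of 7 immune markers it held 2 (Cd68 and Cd74), together at 0.406 and 0.259. With 1 library per group there was no test between treatments. Each difference compares these 2 libraries, the intervals hold counting error alone, and cells do not stand in for replicates. The labels name no separate cultures or animals within a library. Levels are UMIs of a gene per 10000 UMIs of the cell, averaged over cells. A log2 change is DBZ over DMSO on the scale of log2(level + 0.05), which understates the change of low genes. A log2 change of 0.32 or more in size is counted below as past the limit, and a gene counts as detected when 10% or more of the DBZ or of the DMSO cells had its UMIs.

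Myc was lower in the DBZ library. Its level was 0.614 per 10000 against 1.16 in DMSO cells, a fold of 0.550 (log2 change -0.86). With 1008 DBZ and 1448 DMSO UMIs, the pooled ratio was -0.83 (95% counting interval -0.95 to -0.71). Myc lies on chromosome 15 at 61985391 to 61990374 on the plus strand (GRCm38) and is protein coding.

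Together the 40 members were only slightly lower with DBZ. Their summed level was 17.1 per 10000 with DBZ and 18.0 with DMSO, a log2 difference of -0.07, and pooled UMIs gave -0.12 (interval -0.14 to -0.09) from 28303 and 24879 UMIs. Nop10, the member with the highest level, went the other way. It made up 28.2% of the sum in DBZ cells and 20.5% in DMSO cells. Without Nop10 the other 39 members summed to 12.3 and 14.3 per 10000, a log2 difference of -0.22, and the pooled difference was -0.25 (-0.28 to -0.22). The whole family was therefore 4.99% below the DMSO level, and the family without Nop10 14.2% below it. The median log2 change was -0.11 over all 40 members, smaller in size than that of Myc. Over the 8797 detected genes the median was 0.11, so a typical gene of the table lay slightly above 0.

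**Figure D1:**
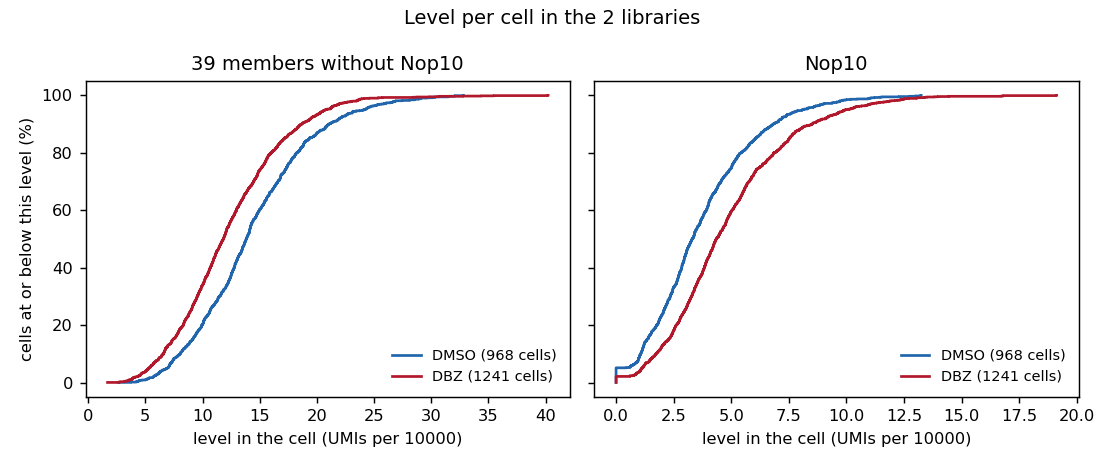
Share of cells (%) at or below each level in UMIs per 10000, for the summed 39 members without Nop10 (left) and for Nop10 (right), with 1 line per library. The DBZ line lies to the left of the DMSO line for the 39 members (median cell 11.8 against 13.8) and to the right of it for Nop10 (log2 change of the mean 0.38).

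The cells of both libraries overlapped over most of their range. The summed level of all 40 members ran from 8.63 (5th percentile) over a median of 16.6 to 27.5 (95th percentile) in DBZ cells. Among DMSO cells it ran from 8.68 over 17.4 to 29.3. Every cell of both libraries had UMIs of at least 1 member. The shift between the libraries was thus small against the spread of measured levels in each, with an SD of 5.88 among DBZ cells and 6.17 among DMSO cells. That spread includes the counting error of each cell, whose part was not tested. Without Nop10 the SDs were 4.82 and 5.15, for mean levels of 12.3 and 14.3.

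Of the 40 members, 26 had a log2 change below 0 and 14 above. All 26 were among the 36 detected members (72.2%), while 36.8% of all detected genes lay below 0. Nol6 and Utp20 reached 10% of cells only in the DBZ library, where both were higher. Past the limit on the lower side were 5 of the 36 members (13.9%), close to the 12.0% of detected genes. On the higher side were 2 members (5.56%), against 26.0% of detected genes. Of all 40 members 5 were lower, where 9.80% of all genes in the table were. At a fold of 1.5 there were 0 lower and 0 higher members, against 4.66% and 8.55% of detected genes. After the median change of all genes was taken off each gene, 11 members (30.6%) were lower past the limit, against 17.7% of genes. In all, 30 of the 36 then lay below 0, since Nol9, Nol12, Rrp9 and Rrp36 passed from just above 0 to just below. Polr1a alone was then higher (2.78%), where 17.0% of genes were. Few members thus differed by much, and most of the others lay a little below 0. Intervals of pooled UMIs lay wholly below 0 for 17 of the 36 members (47.2%, against 23.4% of genes) and wholly above 0 for 3 (8.33%, against 43.4%).

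**Figure D2:**
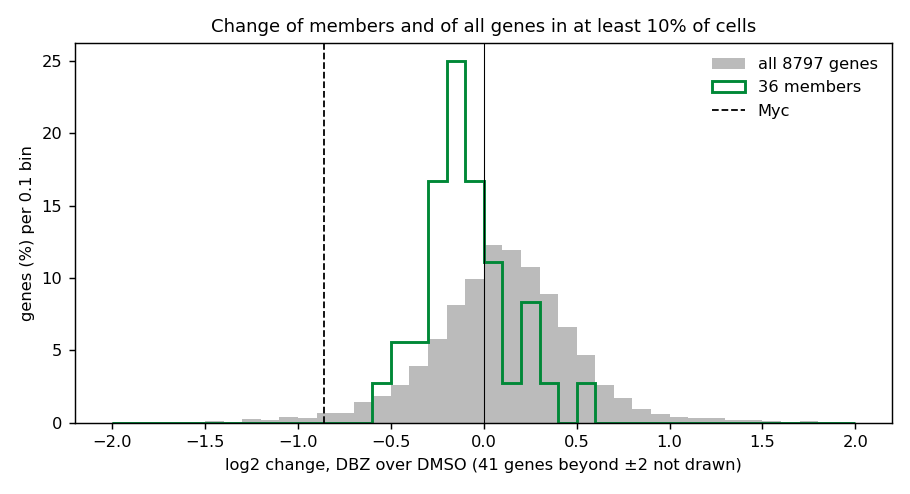
Share of genes (%) per bin of log2 change (DBZ over DMSO) for all 8797 detected genes (grey) and for the 36 members among them (green), with Myc as a dashed line. The members peak below 0 and all genes peak above 0 (medians -0.15 and 0.11), and no member lies as low as Myc at -0.86.

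RNA polymerase I subunits differed among themselves. Polr1d, a small subunit that RNA polymerase III shares, had 1.95 per 10000 in DBZ cells and 2.69 in DMSO cells, a log2 change of -0.46. Its pooled UMIs gave -0.49 (-0.56 to -0.42). Polr1a, the catalytic subunit, was higher, with 0.186 and 0.107 (0.58). From 326 and 154 UMIs its pooled difference was 0.78 (0.50 to 1.06). Polr1c, also shared with RNA polymerase III, was at 0.486 and 0.542, with a pooled difference of -0.20 (-0.34 to -0.06). For Polr1b and Polr1e, levels were 0.0839 against 0.0867 and 0.0986 against 0.116, and both intervals included 0. Summed over the 5 subunits, the level was 2.80 with DBZ and 3.54 with DMSO (log2 difference -0.34), mostly from Polr1d.

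Of the snoRNP proteins Nop56 and Nop58 were lower with DBZ and Nop10 was higher. Nop56 and Nop58 form the core of box C/D particles, which methylate ribosomal RNA. Nop56 had 0.594 per 10000 in DBZ cells and 0.721 in DMSO cells (-0.26 on the log2 scale, pooled -0.35, interval -0.47 to -0.23). Nop58 had 0.759 and 0.899 (-0.23, pooled -0.34, interval -0.45 to -0.23). Fbl, the methyltransferase of the same particle and outside the symbol rule, had 0.966 and 1.15 (-0.24). Nop10 belongs to the H/ACA particles, which turn uridine into pseudouridine, and to telomerase. It was at 4.83 per 10000 in DBZ cells and 3.70 in DMSO cells, a log2 change of 0.38, and 7735 and 5056 pooled UMIs gave 0.31 (0.26 to 0.36). The 3 partners of Nop10 in that particle lay below 0. Dkc1, the pseudouridine synthase, had 0.284 and 0.427 (-0.52), Nhp2 had 1.64 and 1.80 (-0.13) and Gar1 had 0.622 and 0.667 (-0.09). Pooled intervals of Dkc1 (-0.80 to -0.46), Nhp2 (-0.26 to -0.11) and Gar1 (-0.33 to -0.08) did not include 0. Nop10 thus stood apart from the other core proteins of both kinds of particle in its direction. The gene lies on chromosome 2 at 112261926 to 112263269 on the plus strand.

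Of 19 factors of the small subunit, 12 had a change below 0 and 7 above. All 12 were among the 17 detected ones (70.6%), beside 36.8% of all detected genes below 0. The summed level was 4.49 with DBZ and 5.08 with DMSO (log2 difference -0.18). Utp3, a component of the small subunit processome, had 0.387 and 0.543 (-0.44, pooled -0.59, interval -0.74 to -0.43). Utp11l had 0.463 and 0.595 (-0.33, pooled interval -0.52 to -0.23). Nol7 had 0.867 and 1.05 (-0.26, pooled interval -0.45 to -0.24). These 3 led the lower side, and the intervals of Utp23, Nop14, Nop9, Utp18 and Rrp7a also lay below 0. On the other side, Nol6 had 0.0827 and 0.0583 (0.29), with a pooled interval of 0.13 to 0.94 from 146 and 82 UMIs. Utp20, a large scaffold protein, had 0.0869 and 0.0659 (0.24) and Utp6 0.179 and 0.149 (0.20), and the intervals of both included 0. So did those of Nol11, Utp15, Utp14a, Utp14b, Rrp9 and Rrp36. Utp14a and Utp14b are close copies, so the split of their reads is uncertain. An exon of Utp14b also overlaps Acsl3 on the same strand in the annotation.

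Of 9 factors of the large subunit, all detected, 6 had a change below 0 (66.7%, beside 36.8% of all detected genes). Rrs1, which helps to bring the small ribosomal RNA of the large subunit into the precursor, was the lowest of the 36 members on this scale. It had 0.261 per 10000 with DBZ and 0.414 with DMSO (-0.58), and its pooled difference was -0.64 (-0.82 to -0.47) from 473 and 598 UMIs. Rrp1, a factor of large subunit processing, had 1.41 and 1.58 (-0.16, pooled interval -0.21 to -0.03). Pooled intervals of Rrp15 (-0.55 to -0.14) and Rrp1b (-0.70 to -0.20) also lay below 0. Nop2, a methyltransferase of ribosomal RNA, had 0.134 and 0.157 (-0.17), and for Nop2, Nol8, Nol9, Nol12 and Nop16 the interval included 0. Rrp8, which methylates ribosomal RNA and takes part in silencing of ribosomal DNA, had 0.231 and 0.313 (-0.37, pooled interval -0.51 to -0.10).

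A few members share the name but not the task. Nol3 encodes an inhibitor of apoptosis and had 0.178 with DBZ and 0.192 with DMSO (-0.09). Its pooled interval of -0.28 to 0.26 included 0. For Nol4 and Nol4l no task in ribosome assembly was assumed. Nol4 had 22 UMIs in the DBZ library and was listed at 0 in the DMSO library, so no fold is given. Nol4l had 133 and 112 UMIs, with an interval that included 0. Below the 10% limit were also Nol10, with 119 and 97 UMIs, and Rrp12, an export factor of the small subunit, with 94 and 51 (pooled difference 0.58, interval 0.07 to 1.10).

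**Figure D3:**
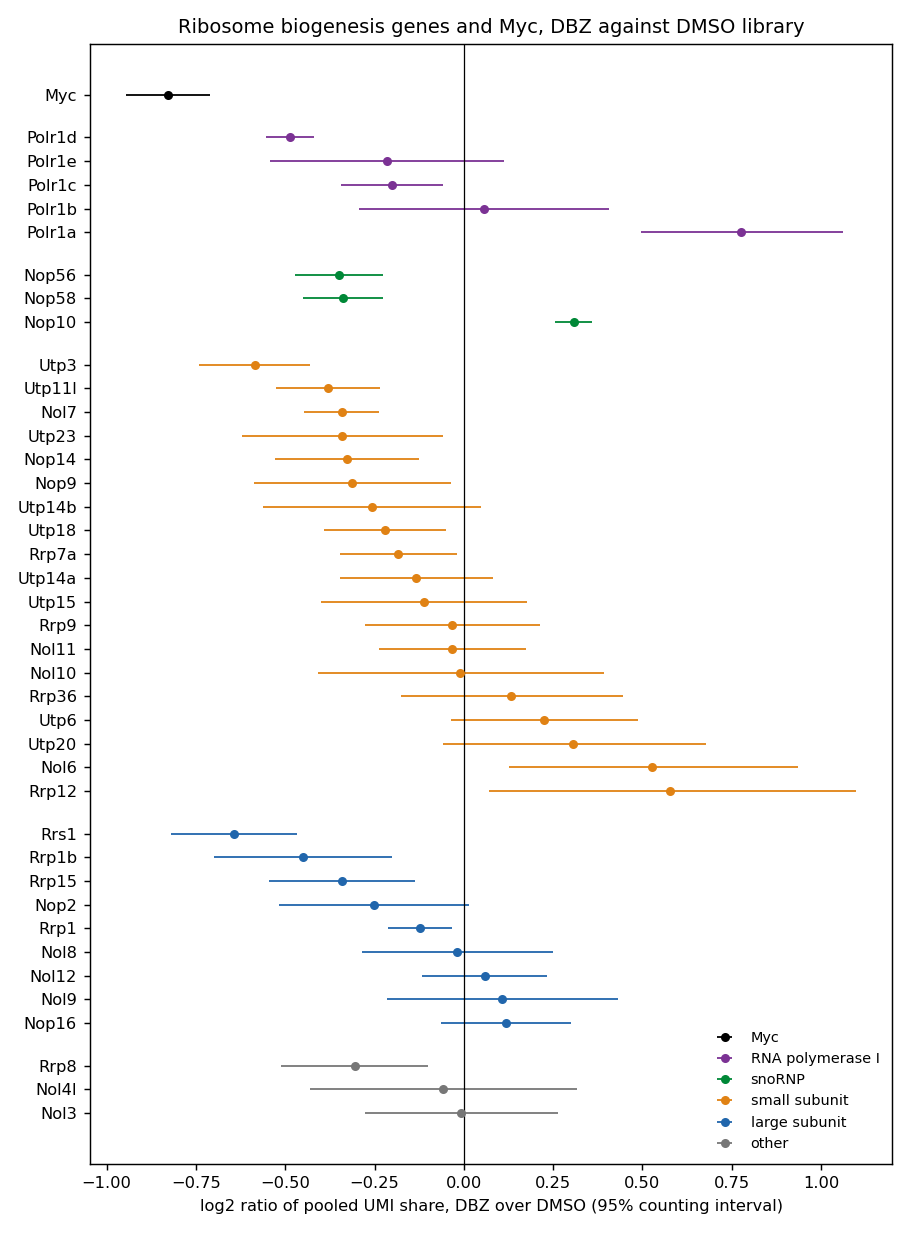
Log2 ratio of the pooled UMI share, DBZ over DMSO, for Myc and 39 members grouped by role (points), with 95% counting intervals (lines); Nol4 is left out because it was listed at 0 in the DMSO library. Most points lie left of 0, while Polr1a (0.78), Nop10 (0.31), Nol6 (0.53) and Rrp12 (0.58) have intervals wholly to the right, and Myc (-0.83) lies left of every member.

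The other genes of the pathway, from lists of 11 polymerase I, 11 snoRNP, 37 small subunit and 48 large subunit genes, had a like position. The table held 105 of them, which summed to 51.8 per 10000 with DBZ and 58.2 with DMSO (log2 difference -0.17, pooled interval -0.23 to -0.21). Of the 97 detected ones, 66 (68.0%) had a change below 0, beside 36.8% of all detected genes. Past the limit 12 (12.4%) were lower, close to the 12.0% of all detected genes, and 2 (2.06%) higher, beside 26.0%. Npm1, a nucleolar chaperone and the most abundant of them in UMIs, had 8.31 and 10.5 (-0.34). Among snoRNP genes Ruvbl2, a helicase that helps to assemble the particles, had 0.334 and 0.535 (-0.61), while the most abundant, Nhp2l1, was at -0.02 and the related helicase Ruvbl1 at 0.15. In the small subunit list, Lyar had 0.364 and 0.521 (-0.47), and Nat10, an RNA acetyltransferase, had 0.0940 and 0.0655 (0.32). Of the same list Emg1, the most abundant, was at -0.20, Noc4l at -0.38 and Wdr36 at 0.24. In the large subunit list, Brix1 had 0.480 and 0.644 (-0.39) and Gnl3l, a GTPase of the nucleolus, 0.472 and 0.292 (0.61), with Tma16 at -0.37 and Senp3 at 0.28. In the polymerase list, Twistnb, a polymerase I subunit, had 0.338 and 0.459 (-0.39) and Taf1b, of its initiation complex, 0.0871 and 0.0572 (0.35), with Taf1d at -0.28 and Ubtf at 0.23. Taf1b and Nat10 reached 10% of cells only in the DBZ library, where both were higher. Taf1b is 1 of the 2 genes counted as higher, and Nat10 fell just short of the limit.

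Of 11 detected genes in a list of Myc, its partners and its regulators, 3 lay below 0, beside 36.8% of all detected genes. Max, the partner that Myc needs to bind DNA, had 0.641 in DBZ cells and 0.562 in DMSO cells (log2 change 0.18). Mycl, a relative of Myc, was at 0.556 and 0.345 (0.62). Mxd1, Mxd3, Mxd4, Mxi1, Mnt and Mga compete with Myc for Max or its sites. Mxd4 had 0.724 and 0.429 (0.69), Mxd1 0.260 and 0.169 (0.50), Mnt 0.299 and 0.222 (0.36) and Mga 0.541 and 0.412 (0.36). Pooled intervals of Mxd4, Mxd1, Mnt and Mga lay above 0, as did those of 43.4% of detected genes. Mxi1 was at -0.08, with an interval that included 0. Mxd3, below the 10% limit, was at -0.06 with a pooled interval of -0.72 to -0.03. Fbxw7, part of the ligase that degrades Myc, was at 0.24 and Zbtb17 at 0.23, with intervals that included 0, while Mlx was at -0.23. Of 25 other genes known as Myc targets, 24 were detected. Past the limit, 6 of the 24 were lower (beside 12.0% of detected genes) and 2 higher (beside 26.0%), with Ldha, the enzyme that makes lactate, at 10.2 and 16.4 (-0.69) and Odc1, of polyamine synthesis, at 0.902 and 0.444 (0.95). The largest change on the lower side was that of Shmt1 (-0.80), and Nme1 was at 0.40.

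Myc with Max binds the E-box letters CACGTG, so promoters were searched for them. A promoter here is 250 bases before to 50 after the gene start in RefSeq (GRCm38.p6), and the motif reads the same on both strands. A promoter was found for 32 of the 40 members, and 6 members (18.8%) held the motif. Of the 9985 genes of the table with a promoter, 11.6% held it, of the 6820 detected ones 12.7%, and of all genes in the reference 8.09%. By single promoters of that length the shares were 16.2% of 37 members' promoters, 9.74% of those of genes in the table, 10.6% of those of detected genes and 7.15% of all 32851. The 6 matches are shown because they are the members with a canonical Myc motif at the start. The E-box is in capitals, with up to 12 bases on each side.
Utp18: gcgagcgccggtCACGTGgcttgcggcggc
Nol11: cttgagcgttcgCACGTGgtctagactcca
Nop2: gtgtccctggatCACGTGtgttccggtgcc
Utp14b: cgcgggcgcgggCACGTGggtggggtcgtc
Rrp7a: gtgcctgtgcacCACGTGtcctggaactgg
Utp20: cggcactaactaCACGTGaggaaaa
The Utp18 stretch is chr11:93885769-93885798 on the minus strand, 20 bases before the start, and that of Nol11 is chr11:107189407-107189436 on the minus strand, 43 bases before it. That of Nop2 is chr6:125131811-125131840 on the plus strand, 60 bases before the start. The Utp14b stretch is chr1:78658365-78658394 on the plus strand, 63 bases before the RefSeq start. In the GENCODE annotation Utp14b starts at 78658038, so there the stretch lies inside the gene, which also shares exon sequence with Acsl3. The Rrp7a stretch is chr15:83122992-83123021 on the minus strand, 208 bases before. In Utp20 it is chr10:88826765-88826789 on the minus strand, 37 bases after the start. These members had small log2 changes between the libraries, -0.14 for Utp18, -0.05 for Nol11, -0.17 for Nop2, -0.19 for Utp14b, -0.15 for Rrp7a and 0.24 for Utp20. Of the 5 members lower past the limit, Polr1d, Utp3 and Rrp8 had a promoter without the motif, and Rrs1 and Utp11l were not matched. A match is a description of letters and shows no binding.

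Within each library the members were also set against Myc from cell to cell. Each cell was thinned to 5000 UMIs and placed by its Myc UMIs, and the member level was taken from the full cell. In the DBZ library the summed level was 16.8 per 10000 in 948 cells without Myc UMIs, 18.1 in 222 cells with 1 and 19.1 in 71 cells with 2 or more. In the DMSO library it was 17.9 in 615 cells, 18.2 in 236 and 18.4 in 117. The step from 0 to 2 or more Myc UMIs was a log2 difference of 0.18 in DBZ cells and 0.043 in DMSO cells. For 3 or more UMIs against 0 it was 0.15 with DBZ (17 cells) and -0.09 with DMSO (35 cells). By single members, 28 of 40 were higher and 12 lower in the DBZ cells with 2 or more Myc UMIs. In the DMSO cells 19 were higher and 20 lower, and 15 members were higher in both libraries. The share of other genes above 0 was not counted here, in a library or in both, so these counts have no background. Over the 36 detected members the median difference was 0.13 in DBZ and 0.0069 in DMSO cells, beside -0.026 and -0.023 over other genes. Higher past the limit were 5 of 36 members in each library (13.9%), beside 13.3% of other genes among DBZ cells and 7.47% among DMSO cells. Lower were 4 and 2 members, beside 19.2% and 12.6% of other genes. Rrs1, with 0.59 and 0.55, was the member higher past the limit in both. The relation of the members to Myc UMIs in the same cell was thus small and uneven, and a cell with a Myc level of 1 UMI in 5000 is placed with large counting error.

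Cells high in other ribosome biogenesis genes were high in the members as well. Cells of each library were ranked by the summed level of the 105 pathway genes outside the symbol rule, split into 4 bins of equal size, and the top bin was set against the bottom bin. The members summed to 13.3, 15.6, 17.4 and 22.2 per 10000 over the 4 bins of DBZ cells, and to 14.0, 15.8, 18.4 and 24.0 over those of DMSO cells. The top bin was also deeper, with a median of 13628 against 9931 UMIs in DBZ cells and 15560 against 9914 in DMSO cells, and the part of depth was not tested. Of the 36 members, 31 (86.1%) were higher past the limit in the top bin of DBZ cells and 30 (83.3%) in that of DMSO cells, 29 in both. Of the genes outside the members and the ranking list, 24.6% and 26.6% were, and their share in both libraries was not counted. Lower was 1 member in each library, Nol3, beside 21.4% and 23.2% of those genes. Nop56 had log2 differences of 1.66 in DBZ cells and 1.74 in DMSO cells, from 0.313 to 1.09 and from 0.382 to 1.39 per 10000. Nop58 had 1.52 and 1.77, Rrs1 1.35 and 1.51, and Rrp15 1.32 and 1.72. Nop10 had 0.51 and 0.69, so it was on the same side as most members here, while between the libraries it was on the other side. Rrp1 had 0.17 and 0.03, though its level is among the highest of the family. Nol3, the apoptosis inhibitor, went against the family with -0.64 and -1.19, from 0.183 to 0.0999 in DBZ cells and from 0.315 to 0.111 in DMSO cells. Its pooled intervals were -1.49 to -0.28 and -2.39 to -1.22.

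**Figure D4:**
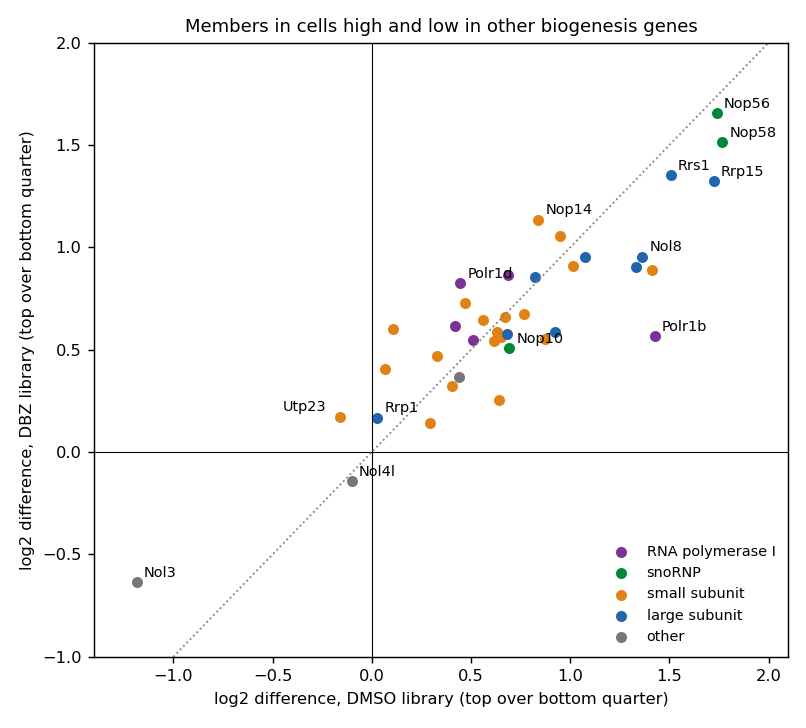
Log2 difference of each member between the top and the bottom bin of cells ranked by 105 other ribosome biogenesis genes, in the DMSO library (x axis) and the DBZ library (y axis), coloured by role; the dotted line marks equal differences and Nol4 is not drawn. Nop56, Nop58, Rrs1 and Rrp15 lie highest in both libraries, Nop10 lies among the middle members (0.69 and 0.51), and Nol3 lies alone far below 0 (-1.19 and -0.64).

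Cells high in genes of DNA replication or mitosis were also higher in the members. Ranked by 23 DNA replication genes, the bins of DBZ cells had summed member levels of 15.6, 16.6, 16.7 and 19.6 per 10000, and those of DMSO cells 15.9, 16.6, 17.5 and 22.1. Most of the step lay at the top bin in both. Higher past the limit there than in the bottom bin were 15 of 36 members in DBZ cells (41.7%, against 24.1% of other genes) and 22 in DMSO cells (61.1%, against 23.7%), 12 in both. Lower were 0 members in DBZ cells and 1 in DMSO cells, beside 6.53% and 20.9% of other genes. Depth differed here too, with medians of 13162 against 9887 UMIs in DBZ cells and 17010 against 9666 in DMSO cells, and its part was not tested. Nop56 (0.96 and 1.33) and Nop58 (0.81 and 1.29) had large differences again. Ranked by 22 mitosis genes, the top bin had 19.5 per 10000 against 16.4 in the other DBZ cells, and 21.3 against 17.0 in DMSO cells. There, 14 members (38.9%, against 13.9% of other genes) and 18 of 36 members (against 17.0%) were higher past the limit, 12 in both. The share of other genes higher in both libraries was not counted for either ranking. Median depth was 14472 UMIs in the top bin against 10212 in the other DBZ cells, and 17693 against 10145 in DMSO cells, and its part was not tested. Nol3 was lower again in the top bin for mitosis genes, by log2 differences of -0.55 in DBZ cells and -1.29 in DMSO cells. Myc was slightly lower at the top of the DNA replication ranking: from the bottom to the top bin its level went from 0.684 to 0.532 in DBZ cells and from 1.24 to 1.09 in DMSO cells.

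**Figure D5:**
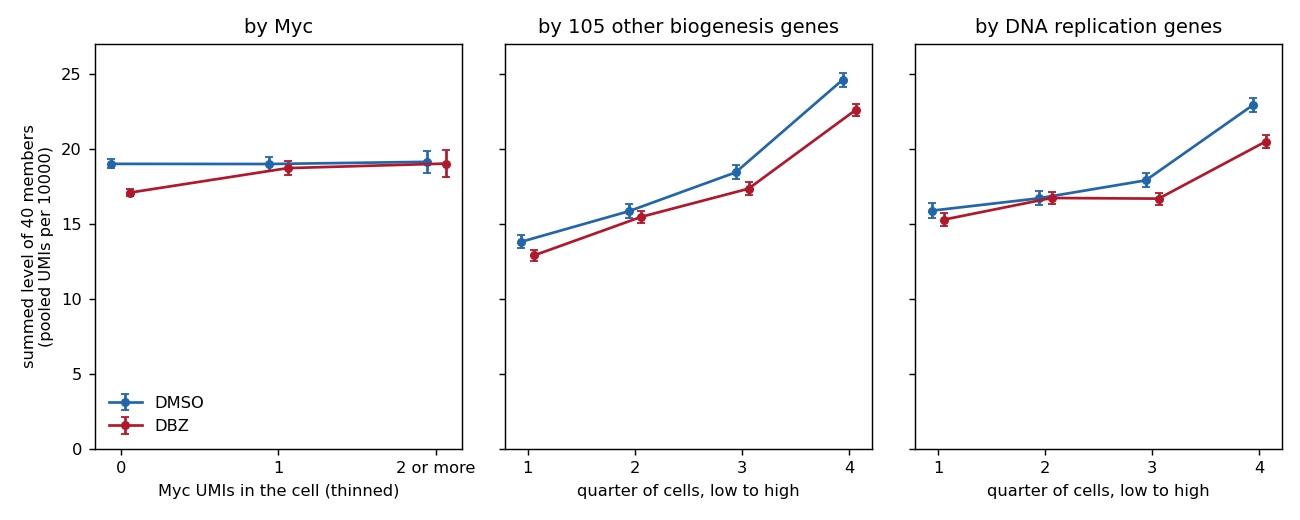
Summed level of the 40 members (pooled UMIs per 10000, with 95% counting intervals) in cells grouped by thinned Myc UMIs (left), by bin of 105 other ribosome biogenesis genes (middle) and by bin of DNA replication genes (right), for both libraries. Levels are higher in each next bin of other biogenesis genes (from 12.9 to 22.6 with DBZ and from 13.8 to 24.6 with DMSO), and across Myc groups they run only from 17.1 to 19.0 with DBZ and from 19.0 to 19.1 with DMSO.

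Genes of dividing and of secretory cells differed between the libraries. The library difference was therefore taken again without cells high in sets of these genes. All 22 mitosis genes and 21 of 22 tested replication genes had a change below 0, beside 36.8% of all detected genes. Lower past the limit were 18 and 20 of them, beside 12.0%. Summed levels were 5.85 with DBZ against 9.10 with DMSO for mitosis genes, and 8.09 against 10.1 per 10000 for replication genes. Without the top bin of each library for mitosis genes the members differed by -0.05 on the log2 scale, and by -0.22 without Nop10. Without the top bin for replication genes they differed by -0.033, and by -0.19 without Nop10. A top bin is an equal share of each library, so leaving it out does not even out the libraries in these genes. In the cells left by the mitosis ranking, mitosis genes summed to 0.365 per 10000 with DBZ and 0.775 with DMSO. In those left by the replication ranking, replication genes summed to 4.06 and 4.35. Secretory markers were far higher with DBZ, 274.9 against 63.6 per 10000 over the 11 of 12 Paneth genes in the table and 18.5 against 3.99 over 18 of 18 enteroendocrine genes. Cells with at least 100 per 10000 of the Paneth genes numbered 277 with DBZ and 66 with DMSO, and 35 and 13 cells lay just above or just below that limit. Their member levels differed by a log2 value of 0.060, and by -0.035 without Nop10. Cells with at least 20 per 10000 of the enteroendocrine genes numbered 167 and 38 (38 and 8 near the limit), with 16.7 and 16.8. The Paneth and enteroendocrine ranges overlapped, with 87 DBZ and 12 DMSO cells in both, so their values are not separate. In the 884 and 876 cells outside both ranges the levels were 17.4 and 18.2 (log2 difference -0.06, and -0.22 without Nop10). Nop10 was higher with DBZ in all of these groups, by log2 differences of 0.35 in the Paneth range, 0.36 in the enteroendocrine range and 0.42 outside them. The lower level of the members without Nop10 and the higher level of Nop10 were thus also measured without the top bin for mitosis or replication genes and outside the Paneth and enteroendocrine ranges. Goblet genes (8 of 10 in the table) summed to 21.6 per 10000 with DBZ and 4.65 with DMSO, and tuft genes (2 of 8) to 0.418 and 0.158. Cells high in these were not removed, and their part in the result was not tested.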

How the data were processed

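Cells were captured in droplets, per the labels' protocols. Per the submitters' processing notes, Cell Ranger 2.1.1 and Seurat were used with mm10 as genome. No source used here states the filters on cells or genes, or a removal of doublets. No doublet caller was run, and all deposited cells were kept. The deposited table holds natural log values: taking exp and subtracting 1 gives levels that add up to 10000 in each cell. All 7553435 values above 0 were whole multiples of 1 step per cell within 0.01, which gave the UMIs. Columns starting with CTRL were read as DMSO and those with GSI as DBZ, from the meaning of the names.

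Totals were 16168229 UMIs (DBZ) and 13083018 (DMSO), with 5187 to 59745 and 5241 to 56915 per cell. Levels, log2 changes (pseudocount 0.05), exact conditional intervals of pooled UMI ratios and exact Poisson intervals, all at 95%, were computed with Python 3.11.15, numpy 2.4.6 and scipy 1.17.1. No count model was run, since there is 1 library per group, and no p-value was made. Detection needed UMIs in 10% of the cells of a library, and the limit on a change was a fold of 1.25, a log2 value of about 0.32. Cells were thinned to 5000 UMIs with a fixed seed, which left out 0 cells. Code was tested on simulated cells. Positions are from GENCODE M21 (GRCm38), and promoters from RefSeq (GRCm38.p6). Utp11l was matched to Utp11 through its synonym for its position.

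The members, lists, roles and groupings were chosen with earlier results of these data known. All members were named, in detail those with the 5 highest levels and the 5 largest changes in each direction, with the most abundant gene of each other list and its 2 largest changes in each direction. Nhp2, Gar1 and Fbl were named after their values were seen, as particle partners.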

Additional observations from a re-analysis of the deposited data

How the results depend on the processing

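With 1 library per group, depth and counting set only part of the error, and differences between cultures were not measured. No paired analysis was possible because each group has 1 library and no pairing label. Between the libraries, the summed member difference of -0.07 was -0.12 as a ratio of pooled UMIs, -0.18 centred on the median gene and -0.22 without Nop10, and -0.033 without the top bin for replication genes (chosen after seeing the data). It lay between -0.09 and -0.05 under the other 4 alternatives. The median over tested members stayed below 0 under all 12 alternatives run for it, between -0.25 and -0.03. The count of members lower past the log2 limit of 0.32 was 5, and it was 11 with pooled UMIs, 11 when centred, 8 after thinning, 1 at a pseudocount of 1 and 0 at a fold of 1.5. The count higher was 2, and it was 4 at a pseudocount of 0.01, 0 at a pseudocount of 1, 1 when centred, 1 with genes in at least 25% of cells and 0 at a fold of 1.5. Of other biogenesis genes 12 were lower, and 21 with pooled UMIs, 31 when centred, 0 at a pseudocount of 1 and 1 at a fold of 1.5. Myc was -0.86, -0.72 after thinning and -0.42 at a pseudocount of 1. Cells with 3 or more against 0 Myc UMIs differed in member level by 0.15 with DBZ, or 0.35 with thinned counts. In DMSO cells the difference was -0.09, but 0.054 by bins of the Myc level and 0.043 for 2 or more UMIs, so its sign depends on the grouping. By single members, 25 of 39 kept their sign under all 8 alternatives run for them, and Polr1d stayed past the limit in all. A pseudocount of 1 shrinks low genes by its construction; the cause of the other shifts was not tested.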

Other observations

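Members were also ranked along immediate early genes, which respond within a short time to growth factors and stress. The summed level of these genes was 31.9 per 10000 with DBZ and 70.5 with DMSO. All 14 had a change below 0, as Myc had, beside 36.8% of all detected genes. Past the limit 13 were lower, beside 12.0%. Over bins of rising immediate early level the summed member level was 18.1, 16.7, 17.3 and 16.5 per 10000 in DBZ cells. In DMSO cells it was 19.5, 18.2, 17.8 and 16.6, so it was lower toward the cells with the highest immediate early level, whose median depth was 9414 UMIs against 12628 in the lowest bin. Over bins of 10 crypt stem cell genes such as Lgr5 and Smoc2 the summed member level was 17.1, 17.8, 17.3 and 16.3 in DBZ cells and 17.9, 17.3, 18.5 and 18.5 in DMSO cells.

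Over bins of 25 other genes known as Myc targets the member level was 13.8, 15.5, 17.4 and 21.9 in DBZ cells and 14.4, 16.4, 18.6 and 22.8 in DMSO cells. Myc itself had levels of 0.349, 0.543, 0.744 and 0.822 over these bins with DBZ and of 0.936, 1.14, 1.36 and 1.19 with DMSO.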
